A study of Drosophila melanogaster with 6 samples.

Results

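The 3 control arrays of this Drosophila melanogaster series measured RNA of eye-antennal imaginal discs, the larval epithelial sacs from which the adult eye and antenna and much of the head cuticle arise. They are 3 of the 6 arrays of the series, and the other 3, from discs that also carry a driver, were not used. Genotype of the control larvae was GS(2)88A8 UAS-Dl/+ in the w1118 strain, with no Gal4 driver, at wandering stage (larva 3) and grown at 25 °C. Both transgenes wait for Gal4: UAS-Dl holds the Notch ligand Delta, and the GS(2)88A8 insertion carries Gal4 binding sites. As background that the labels do not state, its targets are the neighbouring genes lola and psq. Each replicate was a pool of dissected disc pairs, so the eye part, the antennal part and attached cells were measured together, and the spread between replicates is that between pools. For each gene the single-gene probe set with the highest mean over the 3 arrays was taken, which gave 11983 genes. Values are log2 intensities, and a value after ± is the SD over the 3 arrays.

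In the eye disc of the late larva a line of cell shape change, the morphogenetic furrow, crosses the epithelium from posterior to anterior. Cells ahead of it proliferate under the retinal determination genes, cells in it start the proneural gene ato, and cells behind it assemble clusters of photoreceptors and cone cells. The antennal part is patterned in rings by segment identity genes such as Dll, and chemosensory neurons, eye pigments and rhodopsins belong mostly to pupal and adult life.

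Genes were placed in 4 bands of level. The floor band held genes with all 3 values under 4, the low band the other genes with a mean under 7, the middle band means of 7 to 11 and the high band means over 11. The 5 genes that mark the tissue lay in the middle or high band on every array: the eye genes ey, so, dac and elav, and the antennal gene Dll.

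Replicate 1 stood apart from replicates 2 and 3. The mean of 3 probe sets for 18S ribosomal RNA was 10.3 on replicate 1, 7.19 on replicate 2 and 6.31 on replicate 3, and the actin 3′ signal exceeded the 5′ signal by 0.858, 0.591 and 0.399. For eIF4A the same difference was 1.75, 1.73 and 1.49, with replicates 1 and 2 alike and replicate 3 lower. Median level of the genes above the floor was 8.80, 9.16 and 9.15. Across the 6532 genes above the floor, which are not independent replicates, Pearson's r was 0.979 and 0.978 for replicate 1 with replicates 2 and 3, and 0.994 between replicates 2 and 3. In 506 of these genes replicate 1 was lower than both others by over 1, against 3 genes for replicate 2 and 2 for replicate 3. Replicate 1 was the lowest array, by any amount, in 5426 of the 6532 genes (83.1%). The median of replicate 1 minus the mean of the others was -0.598 in the low band, -0.354 in the middle band and -0.279 in the high band. It was also larger for genes with a longer span in the genome, at -0.455 when genes of long span were taken, -0.418 for genes of middle span and -0.237 for genes of short span. What set replicate 1 apart was not tested, and single-array values are given below so that it can be followed.

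**Figure D1:**
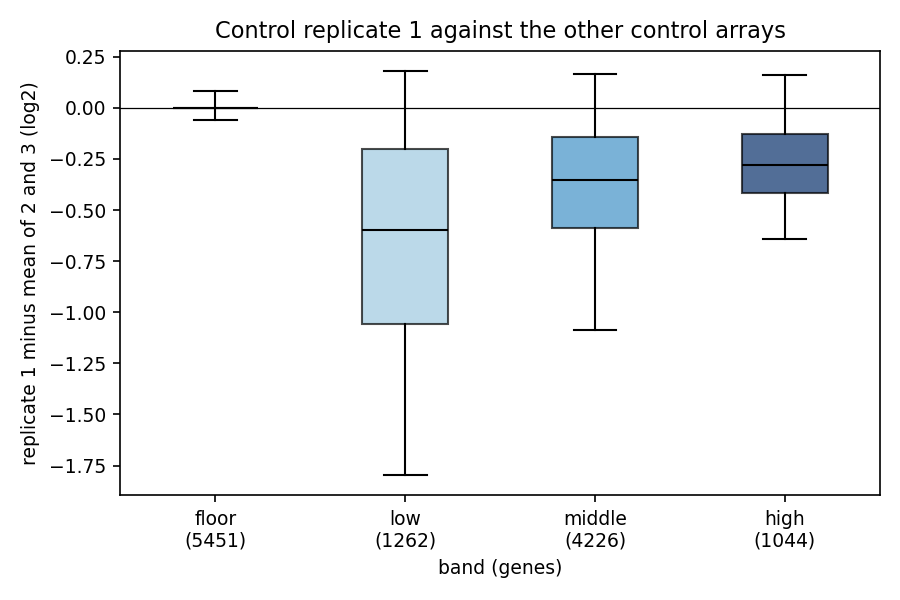
Difference on the log2 scale between control replicate 1 and the mean of replicates 2 and 3 (y axis) for the genes of each level band (x axis, number of genes in parentheses). The line is the median, the box spans the quartiles, and the whiskers leave out the extreme genes at either end. The medians fall below 0 in the low (-0.598), middle (-0.354) and high (-0.279) bands.

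Of the 11983 genes, 6532 (54.5%) lay above the floor. The floor band held 5451 genes (45.5%), the low band 1262 (10.5%), the middle band 4226 (35.3%) and the high band 1044 (8.71%). At the floor, 3583 genes had the scale's lowest value, 2.17, on all 3 arrays. The SD over arrays had a median of 0.413 in the low band, 0.231 in the middle band and 0.178 in the high band. The floor is a limit of the scale, and a gene there is not shown to be silent. Brightness also depends on how a probe set responds. In the 677 genes above the floor with more than 1 probe set, the probe sets of a gene differed by a median of 4.17, against a median SD over arrays of 0.273. The dimmest probe set was itself at the floor in 354 of them (52.3%). Levels of different genes are therefore compared by band only, and in a bulk sample fewer cells of a type and less RNA per cell cannot be told apart.

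**Figure D2:**
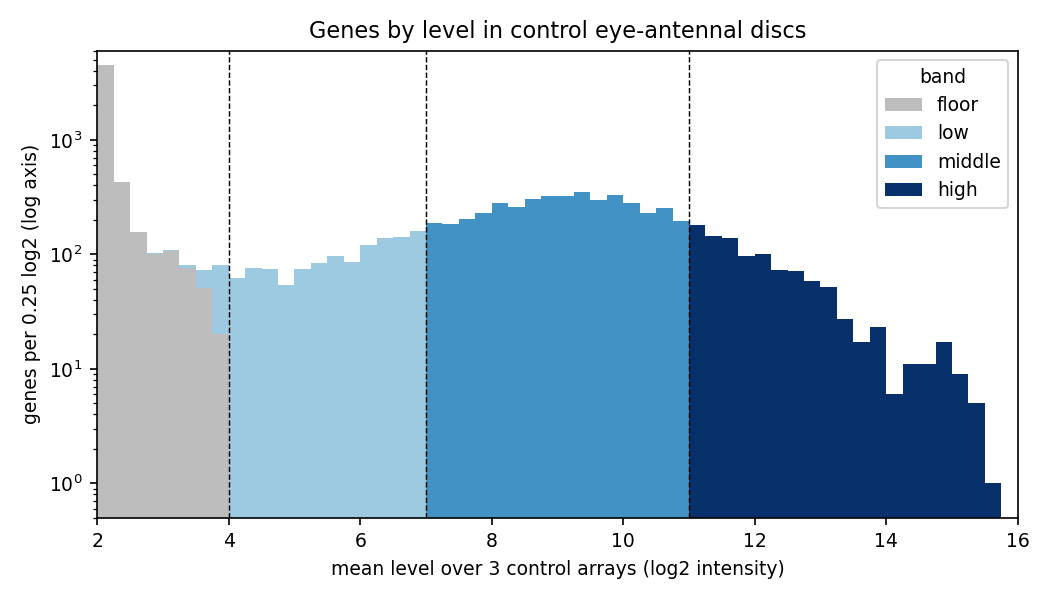
Number of genes (y axis, log scale) by mean level over the 3 control arrays (x axis, log2 intensity), coloured by band. The dashed lines are the limits at 4, 7 and 11. A tall column at the scale's lowest value, 2.17, stands apart from a broad hump of the 6532 genes above the floor.

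The 20 brightest genes were led by the translation machinery, with 15 genes of ribosomal proteins among them. RpL41, a protein of the large ribosomal subunit, measured 15.56, 15.74 and 15.69 on replicates 1 to 3. The others of the 20 were the constitutive chaperone gene Hsc70-4 (15.38 ± 0.24), the small heat shock gene Hsp27 (14.89 ± 0.21), the translation factor gene eEF5 (15.08 ± 0.07), the noncoding lncRNA:CR33938 (15.11 ± 0.14) and Ance (15.03 ± 0.29), which encodes a secreted peptidase related to angiotensin-converting enzyme. Replicate 1 was the lowest array in 19 of these 20 genes, against 83.1% of all genes above the floor. Among 7 heat shock and chaperone genes 6 were high and 1 was in the middle band. That gene was stress-inducible Hsp68, at 8.92, 7.75 and 7.59, where replicate 1 was the highest array. Of 9 glycolytic genes 5 were high, such as Gapdh1 (12.87 ± 0.11) and Eno (13.10 ± 0.21), and 4 were in the middle band. The high band held 8.71% of all genes.

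Families that run the basic cell split into bright genes and copies at the floor. Of 34 cytoplasmic ribosomal protein genes 29 (85.3%) were high, between 13.1 and 15.7, against 8.71% of all genes. RpS5b was low (6.59), and the 4 others, RpS28a, RpS19b, RpL10Aa and RpS10a, were at the floor. Each of these 5 is a second copy of a ribosomal protein gene. The 69 mitochondrial ribosomal protein genes all lay in the middle band, from 7.78 to 10.96.

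The high band held 8.71% and the floor band 45.5% of all genes. Of 40 proteasome genes 26 were high, from 12.1 to 13.3, 13 were at the floor and Rpt3R was low (5.77). All 13 at the floor bear an R or T in their names, as Prosalpha3T and Rpn12R do, the mark of copies that in flies are known mainly from testis. Among 60 genes for subunits of complex I, cytochrome oxidase and ATP synthase, 31 were high, 11 middle, 1 low and 17 at the floor. Of those 17, 15 are copies named with an L, such as COX7AL and ATPsynbetaL, and the other two were ND-B8 and ND-B12. The vacuolar proton pump, which acidifies organelles, had 11 high, 4 middle, 3 low and 13 floor genes of 31. Its proteolipid gene Vha16-1 measured 14.03 ± 0.22, while Vha16-2, Vha16-3, Vha16-4 and Vha16-5 were at the floor. Initiation factor genes followed the same layout, with 22 high, 10 middle and 8 floor genes of 40: the cap-binding gene eIF4E1 was high (12.56), eIF4E3 was at 7.06, and eIF4E4, eIF4E5, eIF4E6 and eIF4E7 were at the floor. A near-identical copy could share signal with the main gene, and this was not tested.

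**Figure D3:**
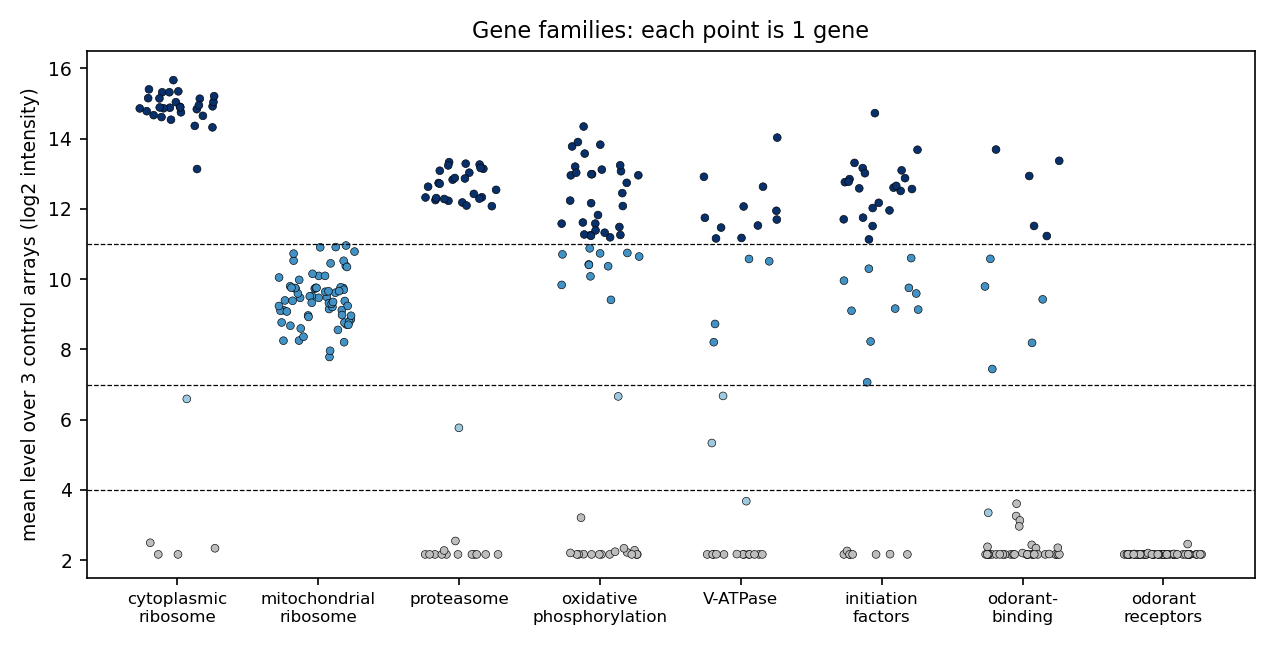
Mean level over the 3 control arrays (y axis, log2 intensity) of each gene in 8 families (x axis), 1 point per gene coloured by band, with dashed lines at 4, 7 and 11. Cytoplasmic ribosomal and proteasome genes form a bright group above 12 and a group at the floor, with 1 gene between, and all 57 odorant receptor genes lie at the floor.

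Retinal determination genes, which give the eye field its identity, were all above the floor, against 54.5% of all genes. Of the 11 measured 4 were high, 5 middle and 2 low, against 8.71% of all genes in the high band. The Pax6 gene toy measured 11.90, 12.38 and 12.21 on replicates 1 to 3. Its partner ey, the Pax6 gene that can induce ectopic eyes, measured 8.39, 9.48 and 9.38. Replicate 1 was the lowest array in both, and the arrays spanned less in toy than in ey. Of the genes downstream of Pax6, the phosphatase gene eya (12.57 ± 0.17) and the nuclear factor gene dac (11.54 ± 0.23) were high. The homeobox genes so (10.38 ± 0.35) and Optix (10.12 ± 0.38) and the zinc finger gene tsh (9.62 ± 0.45) were in the middle band. The related genes danr (11.24 ± 0.17) and dan (10.51 ± 0.34) lay on either side of the limit at 11. The low members were eyg and tio. The gene eyg, a Pax gene for disc growth, had 5.12, 7.27 and 7.09, and tio, a relative of tsh, had 4.89, 6.18 and 6.51. In eyg replicates 2 and 3 were above 7 and replicate 1 alone put the mean in the low band. Replicate 1 was the lowest array in all 11 genes, as it was in 83.1% of all genes above the floor.

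Genes of the furrow followed the same range. The proneural gene ato, which starts the founder photoreceptor R8, measured 9.46, 9.93 and 9.91, and its dimerisation partner da 11.77, 11.80 and 11.84. The 3 arrays lay within 0.1 of each other for da. The antagonists of proneural activity, emc (13.25 ± 0.11) and hry (12.38 ± 0.24), were both high. Behind ato come sens, which maintains R8 (7.82 ± 0.36), and the homeobox gene ro, which limits it (5.29, 6.95 and 6.92, low). No member of the 6 measured was at the floor, against 45.5% of all genes.

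Of 17 photoreceptor specification genes, 1 was high, 11 middle, 3 low and 2 at the floor. The floor share was 11.8%, against 45.5% of all genes, and the high share 5.88%, against 8.71%. The zinc finger gene gl, needed for photoreceptor differentiation, was the high one, at 11.59, 11.87 and 11.89. The pan-neuronal RNA-binding gene elav measured 11.06, 10.61 and 10.73, with replicate 1 the highest array. For subtype genes, the Runx gene lz had 10.37 ± 0.02, the homeobox genes B-H1 and B-H2 of R1 and R6 had 9.90 ± 0.15 and 10.57 ± 0.25, the spalt genes salm and salr had 10.59 ± 0.02 and 7.95 ± 0.19, and the nuclear receptor gene svp had 8.16 ± 0.13. For the R7 fate, the receptor gene sev was low at 6.15, 7.32 and 7.17, where replicate 1 alone was under 7. Its ligand gene boss was at the floor at 2.53, 3.22 and 3.22, and the R7 factor gene pros was low at 6.44 ± 0.16. The ubiquitin pathway genes of the same fate choice, phyl (9.22 ± 0.40) and sina (9.76 ± 0.05), were in the middle band. Signs of later neurons were mixed: the photoreceptor surface gene chp had 8.60 ± 0.45, Appl 10.64 ± 0.26, the axonal gene futsch 6.83 ± 0.97, and fne, a relative of elav, was at the floor.

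**Figure D4:**
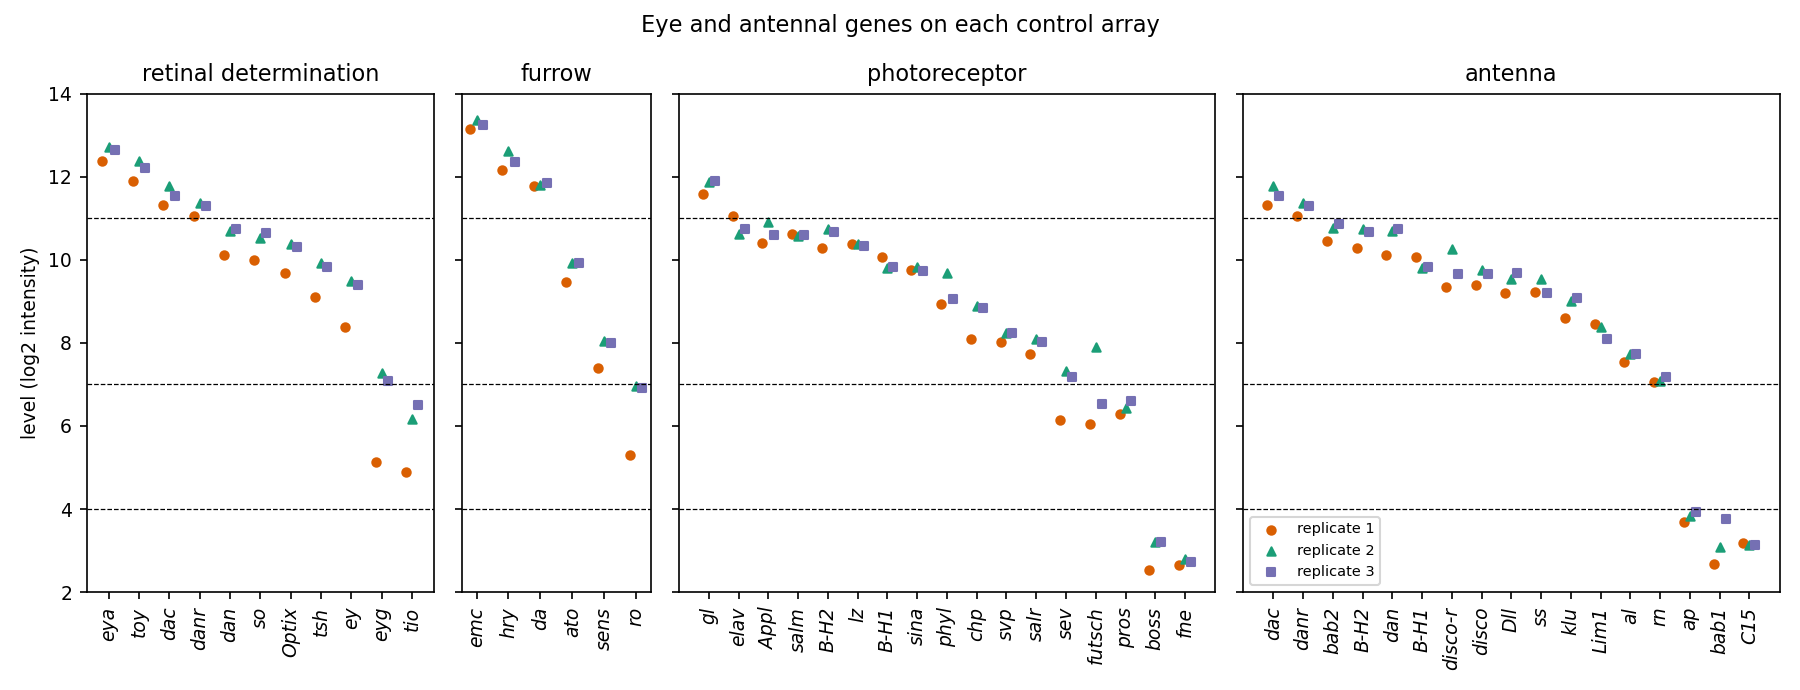
Level (y axis, log2 intensity) of each measured gene (x axis) of 4 lists, with 1 symbol per control array and dashed lines at 4, 7 and 11. Genes run by falling mean within a panel. All retinal determination and furrow genes lie above 4 on every array, while boss, fne, ap, bab1 and C15 lie below it, and replicate 1 is far below the others in eyg, tio and ro.

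For cone cells and the later lattice of support cells, the adhesion genes rst (12.06 ± 0.26) and hbs (9.93 ± 0.12) were high and middle, kirre (5.37 ± 0.59) and the homeobox gene ct (6.20 ± 0.05) were low, and sv and sns were at the floor. The Pax2 gene sv marks cone cells, and its single probe set gave 2.59, 2.66 and 2.61. Pigment genes were dim: st, bw, cn and cd were at the floor and ry was low, at 3.21, 3.57 and 4.05, above 4 on replicate 3 alone. The transporter genes st and bw and the enzyme genes cn and ry serve pigment synthesis in the older eye.

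Of 17 measured genes of the light response machinery 3 were middle, 7 low and 7 at the floor, and none was high. The floor share was 41.2%, near the 45.5% of all genes, and the median level was 3.90, against 5.56 for all genes. The middle genes were the arrestin gene Arr1 (8.85, 9.25 and 8.69) and the G protein genes Galphaq (8.75 ± 0.29) and Gbeta76C (7.01 ± 0.16). Galphaq is also used outside the eye. The channel gene trpl (5.75 ± 0.73) and the kinase gene inaC (6.35 ± 0.89) were low. The channel gene trp, its scaffold gene inaD and the carotenoid uptake gene ninaD had the scale's lowest value, and the second arrestin gene, Arr2, was at 3.17 ± 0.03. Of the rhodopsins only Rh7 was measured, at 4.09, 4.03 and 4.13, and the others were not analysed here.

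Antennal and leg segment genes were above the floor in 14 of 17 (82.4%), against 54.5% of all genes, with 2 high and 12 middle. Dll, which gives appendages their distal identity, measured 9.20, 9.55 and 9.69, and ss, which makes an appendage an antenna, 9.21, 9.53 and 9.20. For both, the 3 arrays spanned under 0.5. The other probe sets of Dll had 9.40 ± 0.08 and 4.79 ± 0.50, the latter in the low band. With the dimmest probe set of each gene, 11 of the 17 genes were above the floor. The distal and ring genes bab2 (10.68 ± 0.22), Lim1 (8.30 ± 0.19), al (7.66 ± 0.12) and rn (7.11 ± 0.05) were in the middle band, as were the zinc finger genes disco (9.59 ± 0.19), disco-r (9.76 ± 0.47) and klu (8.89 ± 0.26). The floor held bab1, the neighbour and paralogue of bab2, at 2.68, 3.09 and 3.76, with C15 (3.15 ± 0.02) and ap (3.82 ± 0.12). Since dac, dan, danr, B-H1 and B-H2 are also on the eye lists, the list does not separate antenna from eye. Without them, 9 of 12 genes were in the middle band and none was high.

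Proneural genes of the sense organs differed among themselves. The achaete-scute genes ac (7.95 ± 0.36) and sc (8.92 ± 0.13) were in the middle band with ato, ase was low (4.43 ± 0.15), and l(1)sc, cato and the olfactory gene amos were at the floor. The receptors that olfactory and taste neurons use were at the floor: 57 of 57 odorant receptor genes, 56 of 56 gustatory receptor genes and 52 of 53 ionotropic receptor genes, against 45.5% of all genes. The exception was Ir76a, at 5.28, 5.64 and 5.44.

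Odorant-binding proteins, small secreted carriers known from antennal fluid, departed from the receptors. Of 47 genes 36 (76.6%) were at the floor, against 45.5% of all genes, but 5 (10.6%) were high, against 8.71%, and 5 were middle. Obp56a measured 13.62, 13.74 and 13.71, Obp56d 13.42, 13.47 and 13.21, and Obp99a 12.68, 13.22 and 12.90. These 3 lay within about 0.5 across arrays. Obp56e (11.51 ± 0.34) and Obp49a (11.23 ± 0.39) were also high, and Obp44a (10.58 ± 0.04), Obp56b (9.79 ± 0.46), Obp56h (9.42 ± 0.41), Obp83g (8.19 ± 0.39) and Obp19d (7.44 ± 0.22) were in the middle band. Obp99b had 2.43, 2.17 and 5.46, so that replicate 3 alone was above 4.

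Genes of head regions and segments outside the eye were measured beside them. Of 9 head and ocellus genes, ci, the transcription factor of Hedgehog signalling, was high (12.94 ± 0.06). The ligand gene hh (9.58 ± 0.07), the segment genes en (9.48 ± 0.14) and inv (7.11 ± 0.16), the head gap gene ems (9.32 ± 0.24) and the ocellus gene oc (8.38 ± 0.20) were in the middle band, btd and eyg were low and tll was at the floor. Of the Hox genes measured, Dfd, which acts in the maxillary part of this disc, had 9.64 ± 0.28, Scr was low (4.48, 5.84 and 5.80), and pb and Antp were at the floor. Of 8 wing genes 4 (50.0%), vg, nub, pdm2 and ap, were at the floor, a share near the 45.5% of all genes. The others, mirr (9.39 ± 0.28), caup (8.30 ± 0.24), pnr (8.02 ± 0.32) and ara (7.86 ± 0.62), which also act in the dorsal eye, were in the middle band. Gut and posterior genes byn, cad, fkh and GATAe were at the floor, grn was in the middle band (8.11 ± 0.60) and srp low (4.50 ± 0.50).

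The transgenes' target genes were above the floor in these discs, which lack the driver. The BTB factor genes psq and lola had 11.32 ± 0.17 and 10.09 ± 0.55, and Delta had 10.42, 11.37 and 11.07. These are values of the brightest probe set. The 15 probe sets of lola ran from 3.50 to 10.09, with 8 in the middle band, 6 low and 1 at the floor, and the other probe set of Delta had 10.70 ± 0.25.

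The measured genes of signalling pathways that pattern the disc lay mostly in the middle and high bands, which held 35.3% and 8.71% of all genes. All 9 measured components of the Notch pathway were there, from mam (8.84 ± 0.28), the coactivator, to the glycosyltransferase genes O-fut1 (12.02 ± 0.26) and fng (12.32 ± 0.35). Of 13 Notch target genes of the E(spl) and Bearded families 8 were high, 2 middle, 1 low and 2 at the floor, against 8.71% of all genes in the high band. Among the Bearded family genes, which restrain Delta signalling, Tom measured 12.68, 13.16 and 13.23, E(spl)malpha-BFM 12.16, 12.72 and 12.75, and Brd 11.33, 11.64 and 11.73. All 3 were high on every array, with replicate 1 lowest. BobA and E(spl)m6-BFM of the same family were at the floor, and Ocho was in the middle band (7.80 ± 0.62). Of the bHLH repressors, E(spl)m3-HLH (11.66 ± 0.16), E(spl)mdelta-HLH (11.46 ± 0.04) and E(spl)mbeta-HLH (11.15 ± 0.25) were high, E(spl)m7-HLH (10.43 ± 0.14) was in the middle band and E(spl)m5-HLH was low (6.52 ± 0.52).

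The middle band held 35.3% and the high band 8.71% of all genes. The EGFR pathway, which recruits photoreceptors in turn, had 3 high and 11 middle genes of the 14 measured, of 21 listed. Its ligand gene spi (12.33 ± 0.32) and the repressor gene aop (12.23 ± 0.18) were high, the receptor gene Egfr had 10.79 ± 0.40 and the feedback inhibitor genes aos and sty had 9.30 ± 0.12 and 10.61 ± 0.19. All 10 Hedgehog genes were in the middle or high band, with the coreceptor gene ihog at 12.07 ± 0.29 and the receptor gene ptc at 7.08, 8.43 and 8.53. Of 9 Dpp genes 8 were, among them the ligand gene dpp (9.38 ± 0.25) and the receptor gene tkv (12.32 ± 0.29). The exception was Med, the shared Smad of the pathway, whose single probe set gave 3.50 on each array. Of 22 listed Wingless genes only 7 were measured, and wg itself was not among them. The secretion gene wls (11.59 ± 0.32) and the glypican gene dlp (11.30 ± 0.18) were high, and the feedback gene Notum was at the floor. Wnt6, a Wnt ligand, had 7.32, 9.08 and 9.30, with replicate 1 well below the others.

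Of 8 listed JAK/STAT genes 5 were measured, and 2 of these (40.0%) were at the floor, a share near the 45.5% of all genes. The 2 were the ligand gene upd2 and the gene et. The ligand gene upd1 was low at 3.44, 4.77 and 4.49, while the receptor gene dome had 9.95 ± 0.47 and Stat92E 11.37 ± 0.20. Of 13 Fat and Hippo genes 12 were in the middle and high bands, which held 35.3% and 8.71% of all genes. Examples were the apical determinant gene crb (11.61 ± 0.46) and the coactivator gene yki (10.49 ± 0.34), and kibra was low (4.08 ± 0.05). Of the insulin pathway, the receptor gene InR was at 9.24, 8.97 and 8.78 and the kinase gene Akt at 11.07 ± 0.40. All 9 measured genes of this pathway were above the floor, against 54.5% of all genes. The 4 measured insulin-like peptide genes, Ilp2, Ilp5, Ilp7 and Ilp8, were at the floor, against 45.5% of all genes. Of the ecdysone response, br (13.37 ± 0.34) was high, EcR had 11.26, 10.48 and 10.03, and the genes Hr3 and Eip93F, which act later in metamorphosis, were at the floor.

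The measured proliferation genes were all above the floor, against 54.5% of all genes. All 15 mitosis genes, all 9 genes of the G1 to S switch and 13 of 14 replication genes were in the middle or high band. Of all genes 35.3% were middle and 8.71% high. These lists name 22, 11 and 19 genes, and the rest had no single-gene probe set. Examples were CycB (12.13 ± 0.13), CycE (10.15 ± 0.30) and PCNA (11.86 ± 0.18), and the low one was Orc2 (6.87 ± 0.22). Of 12 apoptosis genes 9 were in the middle band, among them the caspase genes Dronc (10.30 ± 0.29) and Dcp-1 (10.04 ± 0.12), and the death inducer genes grim and skl and the Bcl-2 family gene Buffy were at the floor. All 9 measured sex determination and dosage compensation genes lay in the middle band, with msl-2 at 8.75 ± 0.07 and Sxl at 10.28 ± 0.41.

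The discs are an epithelium, and its junction and polarity genes were bright throughout, with 10 high and 7 middle of 17. The high share was 58.8%, against 8.71% of all genes. Septate junction genes Nrx-IV (12.47 ± 0.12), sinu (12.39 ± 0.26) and kune (11.76 ± 0.28) and the adherens junction gene alpha-Cat (12.22 ± 0.25) were high, and the cadherin gene shg was in the middle band (8.78, 9.67 and 9.80). Of 12 genes of glia, which enter the eye disc through the optic stalk, 7 (58.3%) were above the floor, a share near the 54.5% of all genes. The glial factor gene repo measured 7.48, 8.71 and 8.54 and the barrier gene moody 9.17 ± 0.35. Gli (13.18 ± 0.28) and nrv2 (11.57 ± 0.25), the high ones, also serve septate junctions of epithelia. The early glial genes gcm and gcm2 and the genes alrm, wrapper and axo, known from glia of the central nervous system, were at the floor.

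Mature nerve genes were mostly dim. Of 12 synaptic genes 8 (66.7%) were at the floor, against 45.5% of all genes. Among these 8 were the transmitter genes VGlut, ChAT, VAChT and Gad1 and the sodium channel gene para. The active zone gene brp was low (3.92, 4.23 and 4.27), nSyb was low (5.01 ± 0.01), and Csp (11.59 ± 0.10) and unc-13 (10.12 ± 0.37) were bright. For neural stem cells, dpn had 9.27 ± 0.03, ase, mira, insc and pros were low, and wor was at the floor. Of these dpn, ase and pros also act in sense organ or eye cells.

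Muscle genes of the contractile apparatus were mostly bright, and the measured genes of muscle precursors were low or at the floor. Of 10 sarcomere genes 6 (60.0%) were high, against 8.71% of all genes, 3 were middle and 1 was at the floor. Myosin light chain gene Mlc1 had 12.36, 12.18 and 12.11, paramyosin gene Prm averaged 11.90 ± 0.22, and troponin C gene TpnC73F 11.63, 11.68 and 11.60. All 3 genes were above 11 on every array. Tropomyosin gene Tm2 (11.44 ± 0.18), the actin gene Act87E (11.24 ± 0.20) and the projectin gene bt (11.18 ± 0.38) were high too, and the flight muscle actin gene Act88F was at the floor. Myoblast genes twi (5.89 ± 0.39) and zfh1 (5.41 ± 0.82) were low, and Him and sns were at the floor. Of 7 listed myoblast genes 4 were measured, and their floor share, 50.0%, was near the 45.5% of all genes. The share of muscle cells in the pools was not measured.

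Haemocyte genes, for blood cells that adhere to discs, were above the floor in 12 of 12, against 54.5% of all genes: 8 middle and 4 low. The list includes vkg (9.18 ± 0.36), Col4a1 (7.77 ± 0.51) and ush (7.04 ± 0.63) in the middle band, and srp (4.50 ± 0.50), its dimmest member. The share of blood cells in the pools was not measured. The crystal cell genes PPO2 (10.57, 10.79 and 10.38) and PPO1 (9.75, 9.87 and 9.27) and the scavenger receptor gene crq (9.88, 9.34 and 9.06) were in the middle band. Replicate 3 was the lowest array in these 3. The plasmatocyte genes Hml (7.71 ± 0.45), Pxn (7.49 ± 0.34), eater (6.43 ± 0.27) and NimC1 (5.96 ± 0.55) were on either side of 7, and in each of them replicate 2 was the highest array.

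Genes of fat body and salivary gland, tissues that lie near the discs, were low or at the floor, and those above it were highest on replicate 3. The storage protein gene Lsp2 had 3.05, 3.06 and 6.51, Fbp1 3.24, 3.24 and 5.52, and Fbp2 2.17, 2.17 and 5.55. Replicate 3 alone was above 4 in each. Of the 10 glue genes, Sgs7 had 3.66, 5.17 and 6.61, Sgs8 2.37, 4.21 and 5.15 and Sgs3 2.28, 3.53 and 5.59, and the other 7 were at the floor. Replicate 3 was the highest array in all 3, and their part in other levels was not tested. Across all genes above the floor, 12 were higher on replicate 3 than on both others by over 1, against 22 for replicate 1 and 15 for replicate 2.

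Of the tracheal list, the receptor gene btl was low (2.46, 4.04 and 4.83), and Gasp (13.58 ± 0.08), obst-A (13.53 ± 0.04), verm (12.61 ± 0.52) and serp (12.23 ± 0.14) were high. These 4 bind or modify chitin and are used by other cuticle-forming epithelia as well.

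**Figure D5:**
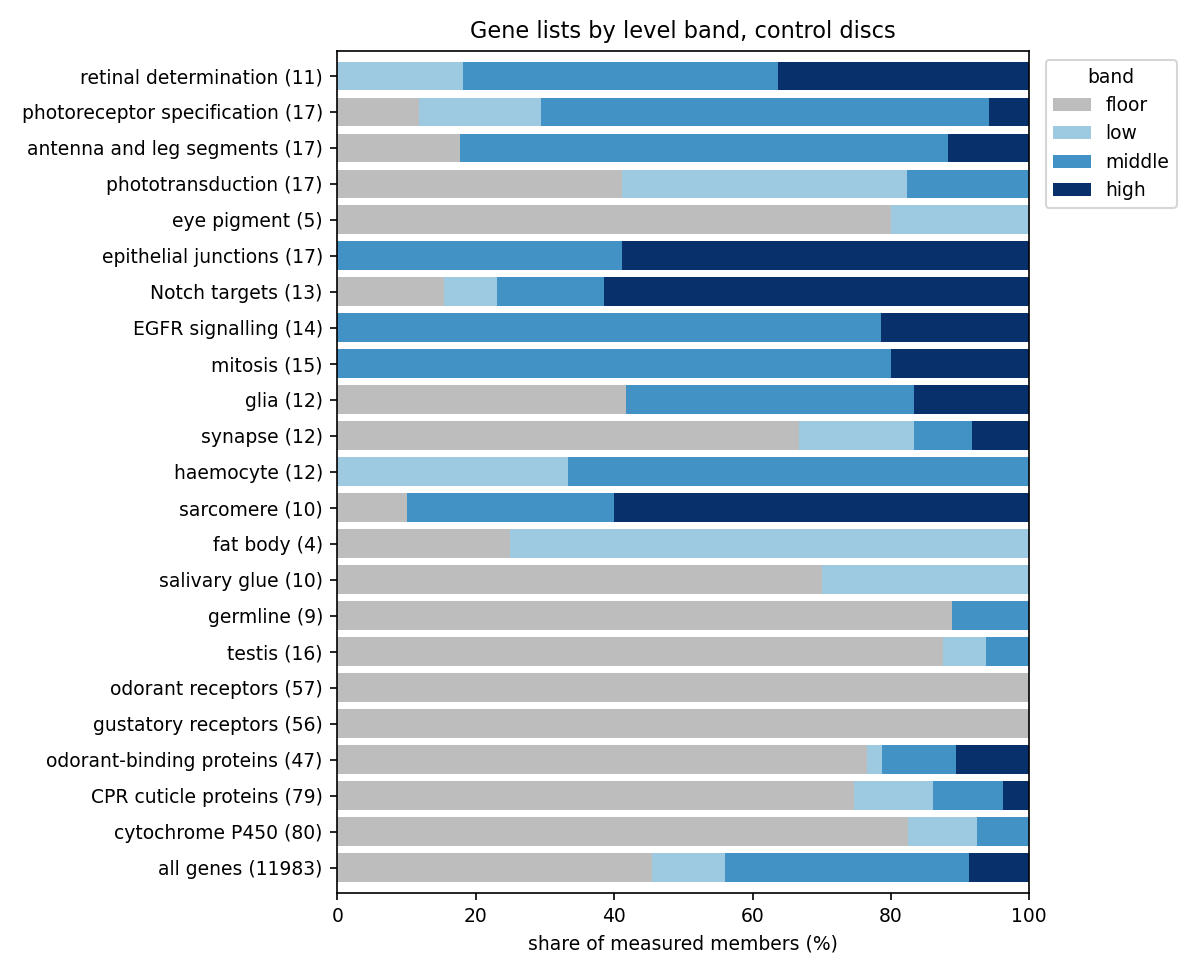
Share of the measured genes of 22 lists, and of all genes, in each level band (x axis, percent), with the number measured in parentheses. Junction, EGFR and mitosis genes have no member at the floor, odorant and gustatory receptor genes have no member above it, and 45.5% of all genes are at the floor.

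Genes of tissues that the dissection should leave out were mostly at the floor, against 45.5% of all genes. This held for 8 of 9 germline genes, 14 of 16 testis genes and 6 of 6 Y-linked fertility genes. It held too for 3 of 3 yolk protein genes, 12 of 13 Jonah gut proteases and 19 of 20 seminal fluid genes. Antimicrobial peptide and pickpocket channel genes, which are not lists of such a tissue, were at the floor in 6 of 6 and 26 of 27. The germline genes vas, piwi and aub were at the floor, and the germline exception, gcl, had 8.39, 8.70 and 8.67. The testis genes above the floor were mia, which encodes a TAF-related factor (7.26 ± 0.39), and the phosphatase gene twe (5.36 ± 0.27). Of 5 digestive enzyme genes Mal-A1, a maltase, was in the middle band (6.54, 7.65 and 7.11). Of 8 genes of ecdysone and juvenile hormone synthesis 5 (62.5%) were at the floor. Of the others, sad (6.28 ± 0.55) and phtm (3.88 ± 0.61) were low, and spok was in the middle band at 8.29, 6.66 and 6.99, with replicate 1 highest.

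Cuticle, detoxification and membrane protein families were counted in the same way. Of all genes 45.5% were at the floor and 8.71% high. Of 79 genes of CPR cuticle proteins 59 (74.7%) were at the floor, and Cpr49Ac (12.80, 12.80 and 13.24), Cpr51A (11.87 ± 0.07) and Cpr12A (11.52 ± 0.26) were high. Of 24 Tweedle cuticle genes TwdlE (8.84 ± 0.31) and TwdlT (7.45 ± 0.47) were above the floor. Of 80 cytochrome P450 genes 66 (82.5%) were at the floor, 8 low, 6 middle and none high, with Cyp4e2 at 9.57 ± 0.09. Glutathione transferases, which detoxify reactive compounds, had 6 high and 10 middle genes of 34. Their floor share was 38.2%, against 45.5% of all genes, and their high share 17.6%, against 8.71%. GstD1 (14.24 ± 0.24), GstS1 (12.76 ± 0.17) and GstO3 (12.17 ± 0.09) were high. Of 33 tetraspanin genes 16 (48.5%) were above the floor and of 15 methuselah-like receptor genes 8 (53.3%), shares near the 54.5% of all genes. Tsp42Ee (13.46 ± 0.11) and Tsp42Ea (11.43 ± 0.11) were high, and mth itself was in the middle band (10.90 ± 0.22).

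Among the 20 genes with the largest SD at a mean of 7 or more, replicate 1 was lowest in 18 and highest in 2. It was lowest in 83.1% of all genes above the floor, and its distance from the others also raises the SD by which these genes were picked. CG44774 had 5.59, 10.46 and 9.15, and hpRNA:CR33940, a noncoding RNA, had 5.01, 8.30 and 8.37. The reverse was seen for lncRNA:alphagamma-element:CR32865, with 11.36, 7.97 and 7.99, and for escl, a relative of the Polycomb group gene esc, with 9.84, 8.10 and 7.70. In all 4 replicates 2 and 3 lay nearer to each other than to replicate 1. This was not so throughout the 20: PAN3 had 8.31, 10.42 and 8.89 and e(y)3 had 7.41, 9.56 and 8.18, with replicate 2 apart from the others.

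Genes next to a limit differ little across it. Just inside the floor were nec, CG7231 and CG5282, with highest values of 3.997, 3.992 and 3.991, and just outside were rtp, IKKepsilon and CG14480, with 4.003, 4.007 and 4.021. Nearest to the limit of 7 were Uqcc1, Cox11 and CG32645 below, with means of 6.999, 6.998 and 6.997, and CG42788, CG11586 and CG7550 at or above it. Nearest to the limit of 11 were Iswi, CG31224 and bip1 below, with means of 10.999, 10.997 and 10.995, and vari, Spf30 and Hsdl2 above, with 11.006, 11.009 and 11.010. The sides of these limits say nothing about a difference between such genes.

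The share of genes at the floor was also counted by chromosome. Of the 65 genes measured on chromosome 4, which is small and largely heterochromatic, 15.4% were at the floor and 27.7% high. On the other chromosome arms the floor share was 41.6% on X, 48.3% on 2L, 45.9% on 2R, 45.0% on 3L and 45.5% on 3R, and all 4 genes placed on Y were at the floor. Chromosome 4 carries ci, toy, ey and sv of the lists above as well as the bright ATPsynbeta (14.34), bt and unc-13. Genes known only by a CG number made up 58.1% of the floor band, 42.8% of the low band, 31.8% of the middle band and 15.3% of the high band. Gene span had a median of 1686 bases at the floor, 2723 in the low band, 3023 in the middle band and 2997 in the high band. Of 77 long noncoding RNA genes 62 were at the floor, against 44.9% of protein-coding genes.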

How the data were processed

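Total RNA was hybridised to Affymetrix Drosophila Genome 2.0 arrays, 15 ug of labelled cRNA each, per the labels' protocols. The authors deposited 1 log2 intensity per probe set and array, made with GCRMA per the submitters' processing notes (version not given in the sources used here). This method corrects background by probe sequence and pulls dim probe sets to a common floor. Nothing was normalized again. An array has no read depth, so the number of arrays limits the precision. Of 18769 probe sets besides 183 Affymetrix controls, the platform annotation gave 1 gene for 13647, several for 402 and none for 4720. NCBI's table of assembly Release 6 held 11894 of the 11983 genes and gave current names, chromosome, span and order.

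The study has 1 group here and no contrast, so no test was run. Counts by band, means and SD over 3 arrays were computed with pandas 2.3.3 and numpy 2.4.6 in Python 3.11.15, and the band counts were checked on simulated data. The 51 gene lists and 20 families matched by name, and the level limits, were chosen with earlier results of these data known. Any list member could be named. Outside the lists, the naming rule took the 20 genes of highest mean, the 20 of largest SD at a mean of 7 or more and the 3 nearest each limit on either side. Of 568 listed genes 430 had a single-gene probe set, and the rest were not analysed here.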

Additional observations from a re-analysis of the deposited data

How the results depend on the processing

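With limits of 6 and 10 there were 698 low and 2007 high genes, and with limits of 8 and 12 there were 2065 low and 483 high genes. The floor band ranged from 5132 genes with a limit of 3 to 5805 genes with the dimmest probe set of each gene, against 5451. Leaving out each replicate in turn gave 5469 to 5481 floor, 1078 to 1328 low, 4155 to 4329 middle and 1020 to 1107 high genes. Without replicate 1, 273 genes (2.28%) changed band. Requiring all 3 arrays in the band left 1007 genes (8.40%) in none, with 846 low, 3772 middle and 907 high. No gene entered or left the floor by this rule. Genes in no band were left out of the list counts above the floor, and this moved the count of 9 of 70 lists, the most of any setting run. The median SD of genes above the floor was 0.0615 without replicate 1, up to 0.273 without another, and 0.156 after quantile normalization, against 0.238. The median range over probe sets of a gene was 4.34 without replicate 1, against 4.17. Without replicate 3 no fat body gene stayed above the floor. Promoter motifs and protein length by band were not run. Of 116 list genes at the floor, 100 rest on 1 probe set, which limits what the floor says of them. No paired analysis was possible because the 3 arrays form 1 group and no result comes from a test.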

Other observations

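The following sets were chosen after their values were seen. The Osiris genes, a cluster that encodes membrane-associated proteins of insects, had 21 of 24 members at the floor. The exceptions were Osi24 (6.78), Osi4 (4.29) and Osi6 (3.72). A run of 19 neighbouring genes at the floor on 3R included Osi7 to Osi20, and the longest such runs held 27 genes on 2L and 25 on 3L. Of genes at the floor, the next measured gene on the chromosome was at the floor as well in 61.0%, against 45.2% of all placed genes. For high genes the share was 13.4%, against 8.76%.

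Probe sets to which the platform annotation gives no gene were also read by band. Of 4720 such probe sets 3934 (83.3%) were at the floor, 172 low and 376 in the middle band. The remaining 238 (5.04%) were high and are unnamed here.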
